A study of Mus musculus with 24 samples.

Results

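Inflammasome, toll-like receptor and cytokine genes were examined in the brains of 24 mice. The genes were the 10 rows of the deposited expression table named Nlrp3, Pycard, Casp1, Il1b, Il18, Tnf, Il6, Tlr2, Tlr4 and Nfkb1, of 54532 genes in the table. The rows were found by name. The study asked whether human amnion epithelial cells (AECs), taken from the placental membrane, lessen arterial fibrosis and stiffening in hypertension and whether cognition benefits, and it included sequencing of mRNA from brain hemispheres of male C57BL/6J mice. There were 4 groups of 6 mice. Mice of the vehicle group were infused with saline, mice of the angiotensin II group were infused with 0.7 mg/kg of angiotensin II per day over 2 weeks, and mice of the vehicle + AEC and angiotensin II + AEC groups had the same infusions and an intravenous injection of AECs. All groups were of the same strain, and each sample was 1 mouse.

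The NLRP3 inflammasome is a cytosolic complex in which the sensor NLRP3 recruits the adaptor ASC, encoded by Pycard, and ASC in turn recruits the protease caspase-1. Caspase-1 cuts the precursors of interleukin-1 beta and interleukin-18 into their secreted forms, so that the RNA of these cytokines is only the first of several steps of control. Toll-like receptors at the cell surface sense microbial and damage-derived ligands and signal through NF-kappaB, which raises transcription of Nlrp3, Il1b, Tnf and Il6. In the healthy brain most of these genes are expressed mainly by microglia and perivascular macrophages.

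Upstream sequence was read for 8 of the 10 genes, which had an entry in a RefSeq table of windows around gene starts (GRCm38.p6). Each window held the 250 bases before the start, and some genes had more than 1 start, giving 9 windows. The kappaB consensus, a motif of 10 bases bound by NF-kappaB, was searched on both strands, and it matched in windows of Nlrp3, Il6 and Tlr2. The same consensus was found in 7.25% of all 32851 windows of this length. The Tlr2 matches are a pair that overlaps, shifted by a single base, 173 and 172 bases before the RefSeq start. The Nlrp3 match was in 1 of its windows, 186 bases before the start, and the Il6 match began 44 bases before the start. The windows with a match are shown because Tlr2 has the largest interaction described below and Nlrp3 and Il6 are the other genes that hold the motif. The match is in capitals, bases in an annotated exon were left out, and each sequence runs 5′ to 3′ on the strand of its gene. Positions are chr3:83841768-83841858 on the minus strand for Tlr2, chr11:59541319-59541567 on the plus strand for Nlrp3 and chr5:30012864-30013113 on the plus strand for Il6.
Tlr2: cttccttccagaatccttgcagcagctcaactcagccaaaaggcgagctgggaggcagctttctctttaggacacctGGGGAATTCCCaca
Nlrp3: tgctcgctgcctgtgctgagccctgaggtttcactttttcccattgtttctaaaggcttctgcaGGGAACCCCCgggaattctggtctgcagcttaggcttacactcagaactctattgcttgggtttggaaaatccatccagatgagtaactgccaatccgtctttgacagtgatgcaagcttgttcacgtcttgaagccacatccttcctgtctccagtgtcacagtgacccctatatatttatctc
Il6: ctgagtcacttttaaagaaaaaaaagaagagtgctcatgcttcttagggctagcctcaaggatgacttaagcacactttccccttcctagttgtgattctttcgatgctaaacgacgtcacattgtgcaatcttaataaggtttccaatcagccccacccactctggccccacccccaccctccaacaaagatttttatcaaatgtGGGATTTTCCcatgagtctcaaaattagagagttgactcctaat

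The windows of Il1b and Tnf held no kappaB match, which says only that the consensus is not in these bases. Both held the TATA box letters TATAAA on the strand of the gene within the last 50 bases before the start, as did 2.63% of all windows. The TATA box began 31 bases before the start of Il1b and 29 bases before that of Tnf. Both are shown as the cytokine genes with this feature, with the TATA box in capitals. Positions are chr2:129371140-129371389 for Il1b and chr17:35202008-35202257 for Tnf, both on the minus strand.
Il1b: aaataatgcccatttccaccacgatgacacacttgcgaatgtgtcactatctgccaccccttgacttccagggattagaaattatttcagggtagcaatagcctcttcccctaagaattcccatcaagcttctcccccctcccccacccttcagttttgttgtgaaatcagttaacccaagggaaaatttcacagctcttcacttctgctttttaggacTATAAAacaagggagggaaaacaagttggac
Tnf: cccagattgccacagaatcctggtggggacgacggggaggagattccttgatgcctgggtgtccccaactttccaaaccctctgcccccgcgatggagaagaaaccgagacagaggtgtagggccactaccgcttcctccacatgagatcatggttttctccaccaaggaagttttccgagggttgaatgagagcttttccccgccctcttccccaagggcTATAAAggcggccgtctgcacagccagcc

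The deposited unit was FPKM, in which fragments are scaled by the length of the gene and the size of the library. Levels compared between genes thus depend on the gene length used, which was 1031 bases for Il18 and 12061 for Nfkb1. Within a small tolerance, every value was a whole multiple of 1 fragment, which gave back the number of fragments (reads) on each gene, out of 16536449 to 25308700 per mouse. Libraries fell into sets that the labels do not name. Total FPKM was 338334.5 to 348596.7 in 6 libraries, 1 or 2 from each group, and 277115.9 to 298300.6 in the remaining 18. The mitochondrial share of fragments was 6.17% to 6.85% in the former and 4.79% to 5.75% in the latter. Markers of neurons, astrocytes and oligodendrocytes were all above 1 FPKM on average, as were 14 of 14 microglia markers, so the tissue label fits its defining markers. The summed FPKM of the microglia markers overlapped between groups, at 204 to 304 with vehicle, 213 to 280 with angiotensin II, 210 to 305 with vehicle + AEC and 218 to 310 with angiotensin II + AEC.

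Levels of the 10 genes spanned from 14.8 FPKM for Il18 to 0.0180 FPKM for Il6 as means of 24 mice. Il18 encodes the cytokine interleukin-18 and was at the 93.5th percentile of all genes in the table. Nfkb1, which encodes the p105 precursor of the p50 subunit of NF-kappaB, followed at 1.87 ± 0.146 FPKM (SD, n = 24). Casp1 averaged 1.05 ± 0.257 FPKM, Pycard 0.556 ± 0.120 FPKM and Nlrp3 0.221 ± 0.0822 FPKM (SD, n = 24). By FPKM the order within the inflammasome was thus protease, adaptor, sensor. In reads over all mice Pycard was above Casp1, at 987 against 739. The gene length used was 3800 bases for Pycard and 1497 for Casp1, so the order of protease and adaptor depends on these lengths. Tlr2 averaged 0.462 ± 0.150 FPKM and Tlr4 0.132 ± 0.0666 FPKM (SD, n = 24), and Il1b averaged 0.172 ± 0.0886 FPKM.

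Ranges of neighbours in this order were apart at its upper end only. By FPKM, Il18 was above Nfkb1, and Nfkb1 above Casp1, in 24 of 24 mice with ranges that did not overlap. The ranges of all other neighbours overlapped, although Casp1 was above Pycard in 23 of 24 mice, Tlr2 above Nlrp3 in 21 and Tlr4 above Tnf in 20. The remaining neighbours changed places more often, with Pycard above Tlr2 in 17 of 24 mice, Nlrp3 above Il1b in 13, Il1b above Tlr4 in 15, and Tnf above Il6 in 11. In reads over all mice Nfkb1 was above Il18, at 10538 against 7134, so the order of these 2 genes depends on the gene lengths used. Pycard shares 485 of its 3800 exon bases (12.8%) with the unverified gene Gm45205, and Il1b shares 25 of its 1907 exon bases with the antisense gene Il1bos. Use of the strand of reads is not given in the sources used here, so the values of these genes are uncertain to that extent. The other 8 genes share no exon base with another annotated gene.

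**Figure D1:**
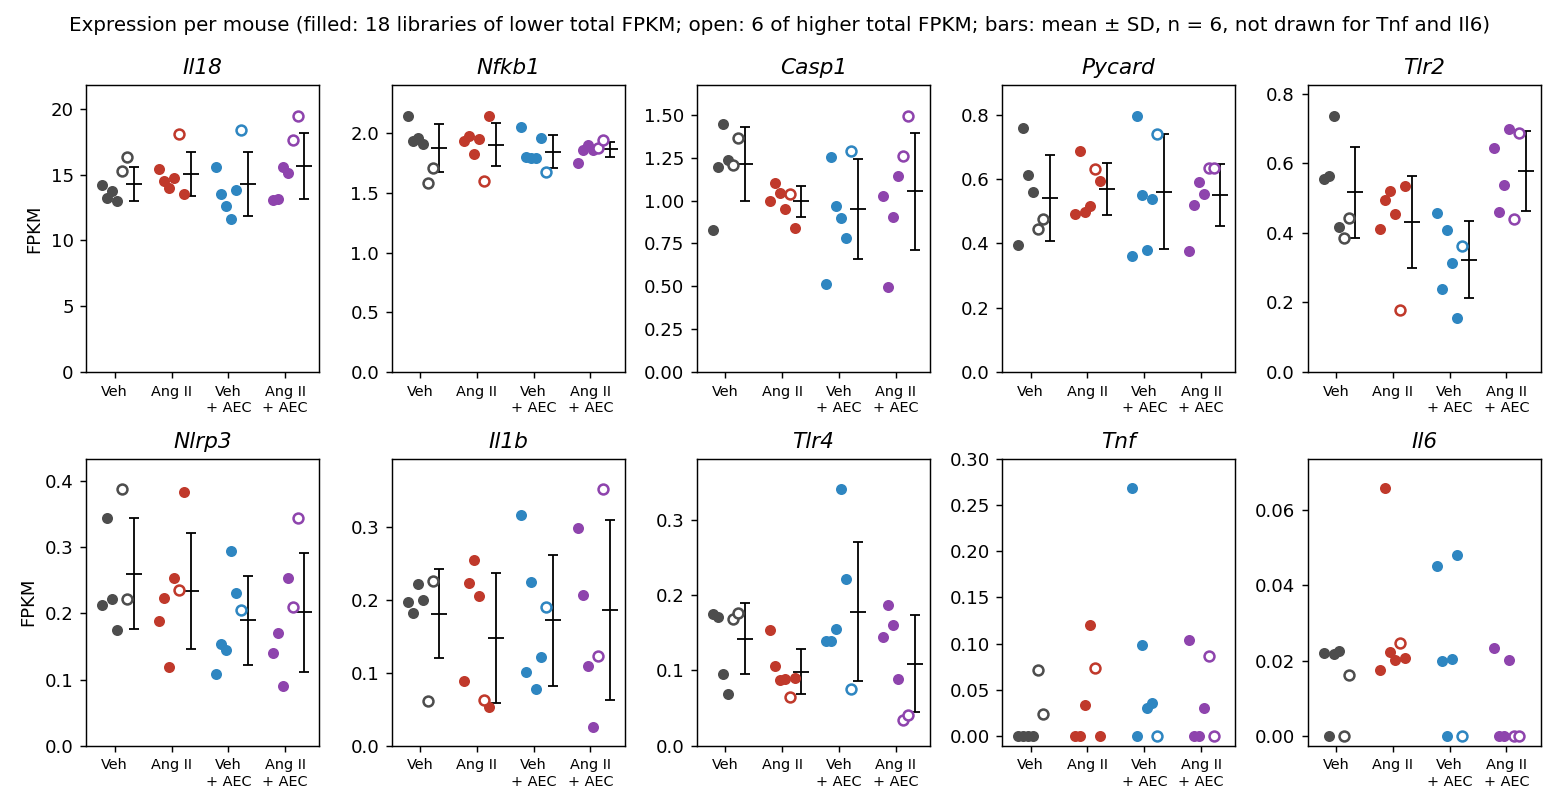
FPKM of each of the 10 genes (1 panel per gene, vertical axis from 0 or just below it, with its own scale) in each mouse, grouped by vehicle (Veh), angiotensin II (Ang II) and AEC treatment. Points are mice, open points are the 6 libraries of high total FPKM, and bars are the mean ± SD (n = 6), left out for Tnf and Il6. The groups overlap in every panel, Tlr2 is lowest on average in vehicle + AEC mice (0.323 FPKM), and the 6 open points lie high for Il18 (15.3 to 19.5 FPKM).

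The spread between mice was larger than counting error for 9 of the 10 genes, Il6 being the exception. For Nfkb1 the coefficient of variation over 24 mice was 7.81%, against 4.77% from counting its reads alone, and for Il18 it was 13.4% against 5.80%. For Tlr4 it was 50.6% against 26.4%, and for Tlr2 32.5% against 19.2%. Tnf varied by 154% against 89.4% and Il6 by 95.1% against 110%. The low genes were thus measured with few reads, and Il1b had 1 to 12 reads per mouse, Nlrp3 7 to 31 and Tlr4 4 to 38.

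**Figure D2:**
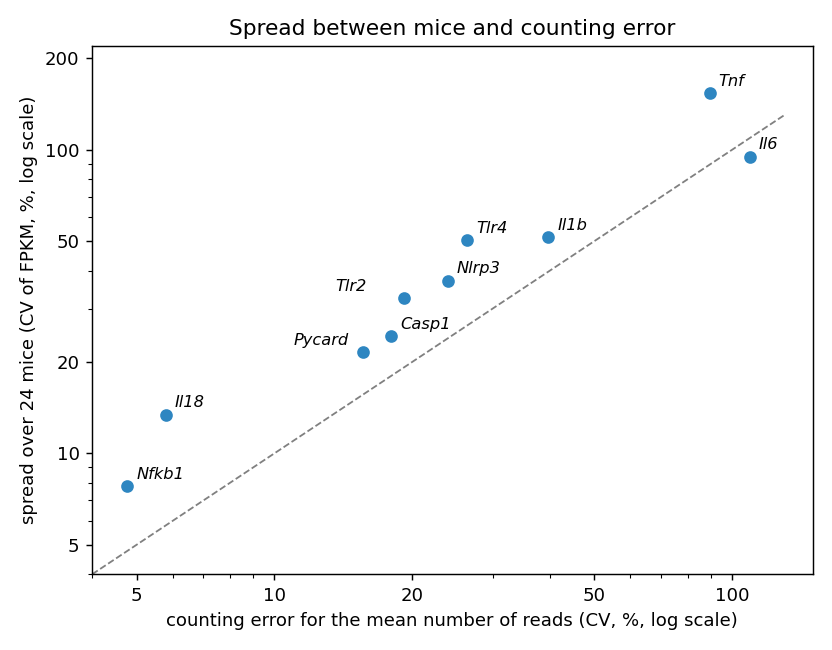
Coefficient of variation of FPKM over the 24 mice (vertical axis, percent, log scale) against the coefficient of variation that counting alone gives at the mean number of reads of the gene (horizontal axis, percent, log scale). Each point is a gene and the dashed line marks equal values. Of the 10 genes 9 lie above the line, Tlr4 at 50.6% against 26.4%, and Il6 lies below it at 95.1% against 110%.

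Some of the spread followed the sets of libraries. With the group means removed, Il18 was higher in the 6 libraries of high total FPKM by 0.34 on the log2 scale (95% interval 0.23 to 0.44), at 15.3 to 19.5 FPKM against 11.6 to 15.6 FPKM in the other 18. Casp1 was also higher in them, by 0.35 (95% interval 0.03 to 0.67). Nfkb1 differed by -0.15 (95% interval -0.26 to -0.04) and Tlr4 by -0.36 (-0.71 to -0.011). The intervals of the other 6 genes included 0. Comparisons between groups are therefore also given within the 18 libraries, since the 6 hold only 1 or 2 mice of each group.

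Differences between groups were fitted with limma on log2(FPKM + 0.1) over all 27286 genes above 0 in at least 6 mice, with Benjamini-Hochberg adjustment. The added 0.1 understates changes, most for genes at or below it, but also for Tlr2 and Tlr4, whose means lie above it. With 0.01 added instead, the difference of Tlr2 in vehicle + AEC against vehicle was -0.71 rather than -0.57 on the log2 scale. That of Tlr4 with angiotensin II, over mice with and without AECs, was -0.60 rather than -0.34. No member passed an adjusted p under 0.05 in any comparison, and 0% of all genes did so. At an unadjusted p under 0.05, 0 of 10 members differed in angiotensin II against vehicle (2.21% of all genes did), 1 in angiotensin II + AEC against angiotensin II (2.54%) and 1 in vehicle + AEC against vehicle (2.41%). In the interaction, the difference between the AEC effects in angiotensin II and in vehicle mice, 2 of 10 members differed (2.54% of all genes). For the average effect of angiotensin II over mice with and without AECs the number was 1 (2.39%), and for the average effect of AECs it was 0 (2.44%). With limma voom on the recovered reads the numbers were 0, 1, 1, 2, 1 and 0 in the same order, with 0 past the adjusted threshold. The comparisons share groups of mice and are not independent of each other. In bulk tissue, fewer cells of a type and less RNA per cell cannot be told apart.

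Tlr2, the receptor for bacterial lipoproteins, had the largest interaction and the largest differences with AECs in vehicle and in angiotensin II mice among the 8 genes other than Tnf and Il6. In angiotensin II against vehicle Tlr4 and Casp1 differed by more. In vehicle mice it ranged from 0.386 to 0.736 FPKM with a median of 0.498, and in vehicle + AEC mice from 0.155 to 0.456 FPKM with a median of 0.338. In angiotensin II mice it ranged from 0.179 to 0.533 FPKM with a median of 0.475, and in angiotensin II + AEC mice from 0.439 to 0.698 FPKM with a median of 0.590. All pairs of groups overlapped, but 4 of 6 vehicle + AEC mice were below every vehicle mouse, and 4 of 6 angiotensin II + AEC mice were above every angiotensin II mouse. The reads behind these values summed to 184 with vehicle, 111 with vehicle + AEC, 155 with angiotensin II and 201 with angiotensin II + AEC.

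In vehicle mice the log2 difference of Tlr2 with AECs was -0.57 (95% interval -1.01 to -0.12), or 0.676-fold in FPKM + 0.1. The two-sided exact permutation p was 0.0195, and the limma adjusted p was 0.995. In angiotensin II mice the difference with AECs had the other sign, at 0.38 (95% interval -0.06 to 0.83, exact permutation p = 0.0693, limma adjusted p = 1). The interaction was 0.95 ± 0.304 (SE; 95% interval 0.32 to 1.58). An exact permutation of AEC labels within each infusion gave a two-sided p of 0.00167 for it, and limma's adjusted p was 0.931. The interaction thus did not pass adjustment over all genes.

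The Tlr2 interaction was 0.94 within the 18 libraries (95% interval 0.31 to 1.58) and 1.04 with the library set as a term. The difference between vehicle + AEC and vehicle mice was -0.72 within the 18 libraries (95% interval -1.17 to -0.27), and that between angiotensin II + AEC and angiotensin II mice was 0.22 (-0.23 to 0.67). Leaving out vehicle + AEC replicate 5, which had the lowest value, gave -0.43 (95% interval -0.86 to 0.0055), so that this 1 mouse decided whether the interval included 0. Leaving out angiotensin II replicate 5, the lowest of its group with 9 reads, gave an interaction of 0.77 (95% interval 0.22 to 1.32), and moved the average difference of Tlr2 with angiotensin II from 0.24 (-0.08 to 0.55) to 0.32 (0.048 to 0.60). With all libraries in the fit, 0 of 14 microglia markers differed at an unadjusted p under 0.05 in any of the comparisons. Of all genes, 2.21% to 2.54% did so. Within the 18 libraries, 1 of 14 was higher in vehicle + AEC than in vehicle mice, where 1140 of all 27286 genes differed. In the average effect of AECs 1 of 14 was also higher there, where 1188 of all genes differed.

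Tlr4, the receptor for lipopolysaccharide, had 4 to 38 reads per mouse. It ranged from 0.0687 to 0.176 FPKM with a median of 0.169 in vehicle mice and from 0.0647 to 0.153 FPKM with a median of 0.0893 in angiotensin II mice. It ranged from 0.0750 to 0.340 FPKM with a median of 0.146 in vehicle + AEC mice and from 0.0340 to 0.187 FPKM with a median of 0.116 in angiotensin II + AEC mice. The groups overlapped. Averaged over mice with and without AECs, the difference with angiotensin II was -0.34 on the log2 scale (95% interval -0.66 to -0.02, limma adjusted p = 0.9999), with an exact permutation p of 0.0321. It was -0.34 (95% interval -0.64 to -0.047) with the library set as a term and -0.19 (-0.52 to 0.13) within the 18 libraries. Leaving out any of 10 of the 24 mice (vehicle replicates 1, 2, 5 and 6, angiotensin II replicate 5, vehicle + AEC replicates 4 and 5, and angiotensin II + AEC replicates 4, 5 and 6) gave an interval that included 0, with values from -0.27 to -0.34. Neither AEC comparison differed beyond the spread of Tlr4, at 0.03 (95% interval -0.43 to 0.48) in angiotensin II mice and 0.16 (-0.29 to 0.62) in vehicle mice. The same values were 0.25 (-0.21 to 0.70) and 0.38 (-0.071 to 0.84) within the 18 libraries.

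Nlrp3, the inflammasome sensor, had a lower mean in each of the other groups than with vehicle, but no difference exceeded the spread. It ranged from 0.175 to 0.387 FPKM with a median of 0.222 in vehicle mice, from 0.120 to 0.384 FPKM with a median of 0.230 in angiotensin II mice, from 0.108 to 0.294 FPKM with a median of 0.180 in vehicle + AEC mice and from 0.0900 to 0.345 FPKM with a median of 0.190 in angiotensin II + AEC mice. The groups overlapped throughout. The log2 difference was -0.12 (95% interval -0.57 to 0.34) for angiotensin II against vehicle, -0.16 (-0.61 to 0.29) for angiotensin II + AEC against angiotensin II and -0.32 (-0.77 to 0.14) for vehicle + AEC against vehicle. In the 18 libraries alone they were -0.042 (-0.58 to 0.49), -0.33 (-0.86 to 0.20) and -0.25 (-0.79 to 0.28).

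Pycard, the adaptor, varied less between mice than Nlrp3 and Casp1, with a coefficient of variation of 21.6% against 37.1% and 24.4%. Its group means were 0.541 ± 0.133 FPKM with vehicle, 0.570 ± 0.0801 with angiotensin II, 0.561 ± 0.180 with vehicle + AEC and 0.551 ± 0.0970 with angiotensin II + AEC (SD, n = 6 each). Medians ran from 0.517 to 0.572 FPKM, single mice from 0.361 to 0.797 FPKM, and all groups overlapped. The log2 differences of 0.08 (95% interval -0.29 to 0.45) for angiotensin II against vehicle, -0.05 (-0.41 to 0.32) for adding AECs to angiotensin II and 0.02 (-0.34 to 0.39) for adding them to vehicle all lay within the spread between mice. Within the 18 libraries they were -0.034 (-0.47 to 0.40), -0.11 (-0.55 to 0.32) and -0.14 (-0.58 to 0.30), so that the first and the last changed sign.

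Casp1, the protease, ranged from 0.826 to 1.45 FPKM in vehicle mice with a median of 1.22. In angiotensin II mice it ranged from 0.839 to 1.103 FPKM with a median of 1.02. Angiotensin II mice varied least, and all 6 lay within the range of the vehicle mice. The log2 difference was -0.25 (95% interval -0.68 to 0.18, exact permutation p = 0.0671). With AECs Casp1 spread more widely, from 0.514 to 1.29 FPKM with a median of 0.932 in vehicle + AEC mice and from 0.495 to 1.49 FPKM with a median of 1.09 in angiotensin II + AEC mice. The difference of vehicle + AEC from vehicle was -0.36 (95% interval -0.79 to 0.07) and that of angiotensin II + AEC from angiotensin II was 0.02 (-0.41 to 0.45). With the library set as a term, these became -0.30 and -0.04. They were -0.40 (-0.88 to 0.081) and -0.18 (-0.66 to 0.31) within the 18 libraries, where angiotensin II against vehicle was -0.21 (-0.70 to 0.27). Without vehicle replicate 1, or without vehicle + AEC replicate 6, the difference of vehicle + AEC from vehicle was -0.45, with 95% intervals of -0.89 to -0.015 and -0.89 to -0.0074. The Casp1 interaction was 0.37 (95% interval -0.23 to 0.98), and without angiotensin II + AEC replicate 2 it was 0.55 (0.031 to 1.08).

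Of the substrates of caspase-1, Il18 was measured with 236 to 429 reads per mouse. It ranged from 13.01 to 16.3 FPKM in vehicle mice with a median of 14.0, from 13.5 to 18.1 FPKM in angiotensin II mice with a median of 14.6, from 11.6 to 18.4 FPKM in vehicle + AEC mice with a median of 13.7 and from 13.05 to 19.5 FPKM in angiotensin II + AEC mice with a median of 15.3. The highest value in each group came from a library of high total FPKM. The log2 difference was 0.07 (95% interval -0.15 to 0.29) for angiotensin II against vehicle, 0.05 (-0.17 to 0.27) for angiotensin II + AEC against angiotensin II and -0.02 (-0.24 to 0.21) for vehicle + AEC against vehicle. Within the 18 libraries these were 0.088 (-0.064 to 0.24), -0.024 (-0.18 to 0.13) and -0.019 (-0.17 to 0.13). The average effect of angiotensin II on Il18 was 0.10 (95% interval -0.05 to 0.26), and with the library set as a term it was 0.10 (0.013 to 0.19), with 0 members past adjustment. That term moved the interval of Tlr2 in angiotensin II + AEC against angiotensin II off 0 as well, at 0.43 (0.0069 to 0.85).

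Il1b, which encodes interleukin-1 beta, had 42 reads over the 6 vehicle mice, 33 with angiotensin II, 37 with vehicle + AEC and 40 with angiotensin II + AEC. It ranged from 0.0610 to 0.226 FPKM with a median of 0.199 in vehicle mice, from 0.0527 to 0.255 FPKM with a median of 0.147 in angiotensin II mice, from 0.0782 to 0.317 FPKM with a median of 0.157 in vehicle + AEC mice and from 0.0257 to 0.352 FPKM with a median of 0.166 in angiotensin II + AEC mice. The groups overlapped, and at this depth the comparisons had wide intervals. The log2 difference was -0.23 (95% interval -0.85 to 0.39) for angiotensin II against vehicle, 0.16 (-0.46 to 0.78) for angiotensin II + AEC against angiotensin II and -0.07 (-0.69 to 0.55) for vehicle + AEC against vehicle. Within the 18 libraries these were -0.25 (-0.96 to 0.46), -0.079 (-0.79 to 0.63) and -0.24 (-0.94 to 0.47).

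Tnf and Il6, the cytokines tumour necrosis factor and interleukin-6, were at the limit of detection. Tnf had 30 reads over all 24 mice, 12 mice had none and 22 had 3 or fewer. By group, Tnf had 3 reads with vehicle (exact 95% Poisson interval 0.619 to 8.77), 7 with angiotensin II (2.81 to 14.4), 13 with vehicle + AEC (6.92 to 22.2) and 7 with angiotensin II + AEC (2.81 to 14.4). Of the 13 reads with vehicle + AEC, 8 came from 1 mouse, and the intervals overlapped. They cover counting error only. Il6 had 20 reads over all mice and at most 3 in any, so that no fold change is given.

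By group, Il6 had 4 reads with vehicle (exact 95% Poisson interval 1.09 to 10.2), 8 with angiotensin II (3.45 to 15.8), 6 with vehicle + AEC (2.20 to 13.1) and 2 with angiotensin II + AEC (0.242 to 7.22). Reads of Il6 were found in 6 of 6 angiotensin II mice and in 2 of 6 angiotensin II + AEC mice. The exact permutation p for that comparison was 0.0281, with a limma adjusted p of 1, and the exact permutation p for the interaction was 0.0372 (limma adjusted p = 0.931). Of the 8 reads with angiotensin II, 3 came from replicate 2, and without that mouse Il6 did not pass an unadjusted limma p under 0.05 in either comparison. The same held without angiotensin II + AEC replicate 2, 3, 5 or 6, and for the interaction without any of 8 further mice. With the replicate number as a block, or the library set as a term, Il6 passed in neither comparison.

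Nfkb1 had 322 to 548 reads per mouse and the narrowest intervals. It ranged from 1.58 to 2.14 FPKM in vehicle mice with a median of 1.92, from 1.60 to 2.15 FPKM in angiotensin II mice with a median of 1.94, from 1.68 to 2.05 FPKM in vehicle + AEC mice with a median of 1.80 and from 1.75 to 1.94 FPKM in angiotensin II + AEC mice with a median of 1.86. The groups overlapped. The log2 difference was 0.02 (95% interval -0.15 to 0.20) for angiotensin II against vehicle, -0.03 (-0.20 to 0.15) for angiotensin II + AEC against angiotensin II and -0.02 (-0.19 to 0.15) for vehicle + AEC against vehicle. The p-values of these comparisons do not show that levels were equal, but their intervals reached no farther than 0.20 on the log2 scale in either direction. Within the 18 libraries the differences were -0.016 (-0.16 to 0.13), -0.088 (-0.23 to 0.057) and -0.078 (-0.22 to 0.067).

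**Figure D3:**
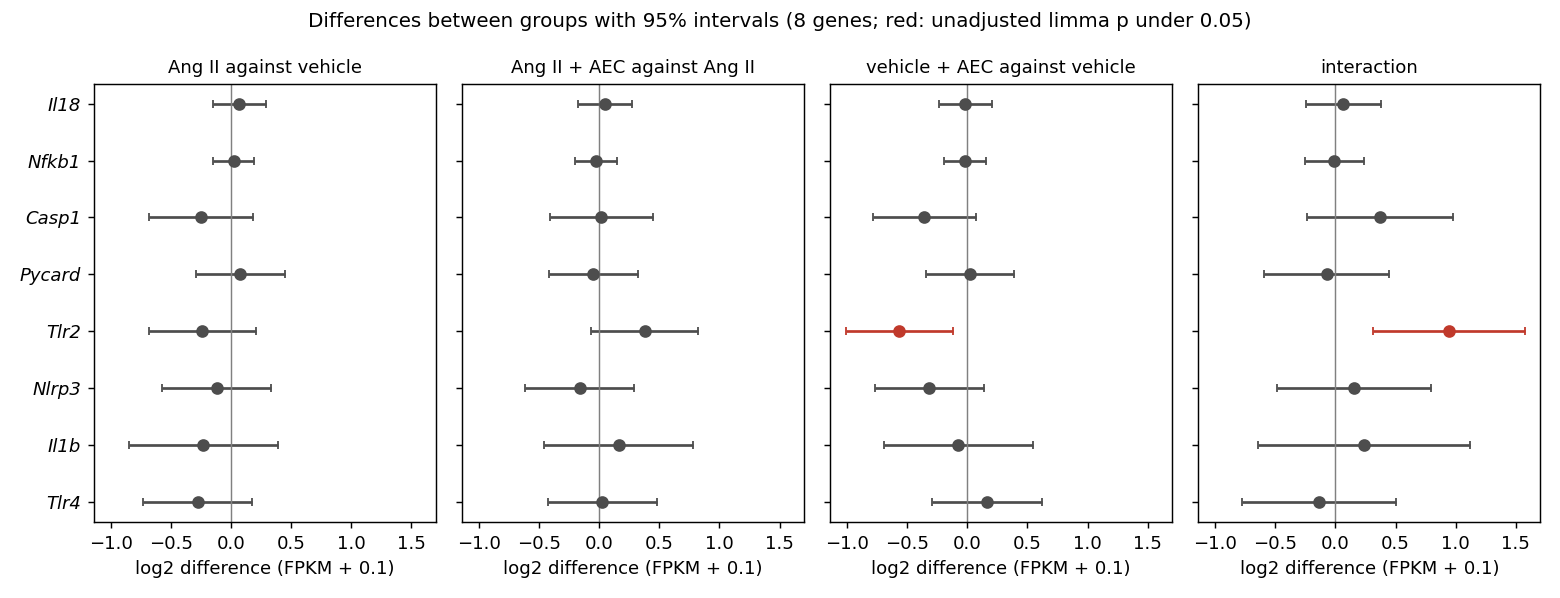
Log2 difference on the log2(FPKM + 0.1) scale (horizontal axis) of 8 of the 10 genes (rows) in 4 comparisons (panels), with 95% intervals from the limma fit. Red marks an unadjusted p under 0.05, and Tnf and Il6 are left out because of their few reads. Only Tlr2 is red, at -0.57 in vehicle + AEC against vehicle and 0.95 in the interaction.

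As a group, the 8 genes other than Tnf and Il6 had a median log2 difference of -0.17 for angiotensin II against vehicle, with 3 of 8 higher. The median of all genes tested was 0.02. For angiotensin II + AEC against angiotensin II their median was 0.02 with 5 of 8 higher (all genes -0.02), and for vehicle + AEC against vehicle it was -0.05 with 2 of 8 higher (all genes 0.01).

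Markers of blood-borne cells are given beside the cytokines because neutrophils and monocytes can carry Il1b, Tnf and Tlr2. Of 9 neutrophil markers, 8 were higher at an unadjusted limma p under 0.05 in the average effect of angiotensin II (2.39% of all genes differed), and 0 of 9 passed adjustment. Within the 18 libraries 7 of 9 were higher, where 1058 of all 27286 genes differed. With AECs, 2 of 9 were higher in angiotensin II mice (2.54% of all genes differed) and 3 of 9 in the average effect (2.44%). Within the 18 libraries these were 1 of 9 and 2 of 9, where 1259 and 1188 of all 27286 genes differed. In the interaction 1 of 9, Camp, was higher (2.54% of all genes differed), as Tlr2 was, by 1.52 (95% interval 0.18 to 2.86, exact permutation p = 0.0555, limma adjusted p = 0.931). The interval of the Camp interaction included 0 within the 18 libraries (-0.50 to 2.71). The summed FPKM of the neutrophil markers was 5.43 to 14.1 in vehicle mice, 6.77 to 25.7 in angiotensin II mice, 7.28 to 15.5 in vehicle + AEC mice and 10.03 to 49.8 in angiotensin II + AEC mice. Of 5 erythroid markers, 0 differed at an unadjusted p under 0.05. Their median log2 difference was 0.42 in the average effect of angiotensin II, 0.44 in angiotensin II + AEC against angiotensin II and -0.19 in vehicle + AEC against vehicle. Within the 18 libraries these were 0.55, 0.36 and 0.23. The part of blood left in the tissue was not tested. The average difference of Il1b with angiotensin II was -0.11 (95% interval -0.55 to 0.33). Of 9 markers of border macrophages and monocytes, 2 were higher at an unadjusted p under 0.05 in the average effect of angiotensin II. One of the 9, Plac8, was lower in vehicle + AEC than in vehicle mice (-0.58, exact permutation p = 0.0498, limma adjusted p = 0.995) and higher in the interaction (1.08, exact permutation p = 0.00622, limma adjusted p = 0.931), the comparisons in which Tlr2 differed. Both values of Plac8 were smaller within the 18 libraries, at -0.43 (-1.04 to 0.19) and 1.02 (0.15 to 1.89). The list as a whole had a median of -0.043 in vehicle + AEC against vehicle, with 6 of 9 lower, and of 0.13 in the interaction, with 6 of 9 higher. Another of its genes, Ccr2, was lower in angiotensin II + AEC than in angiotensin II mice (-0.29, exact permutation p = 0.0152, limma adjusted p = 1), where Tlr2 had the other sign. Ccr2 had 1 to 15 reads per mouse, and within the 18 libraries its interval included 0 (-0.60 to 0.078). Plac8 had 0 to 14 reads per mouse, and the part of such cells in the values of Tlr2 was not tested.

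Whether the members followed the amount of microglial RNA was examined over the 24 mice, with the means of groups and library sets removed. Of 10 correlations with the mean log2 level of the 14 microglia markers, 0 passed Benjamini-Hochberg adjustment in permutation tests. Tnf had the largest, with r = -0.529 (permutation p = 0.00796, adjusted 0.0796) and rho = -0.481 (permutation p = 0.0189, adjusted 0.189), and without the 2 mice farthest from the median r was -0.417. Tnf was at 0 in 12 mice, so this is no more than a description of sparse counts. Nlrp3 had r = 0.321, Pycard 0.311 and Casp1 0.296. For Tlr2 r was 0.0475, but 0.469 without the 2 mice farthest from the median and -0.212 within the 18 libraries, so that its value rests on few mice.

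Among themselves, the members had correlations of both signs over the 24 mice. Of the 45 pairs, Casp1 and Pycard had the highest Pearson r, 0.525, followed by Il18 and Nfkb1 at 0.520 and Il1b and Tlr2 at 0.425. The lowest were Pycard and Tnf at -0.586, the largest in size of all pairs, Pycard and Tlr4 at -0.464 and Il18 and Tlr4 at -0.415. The points share libraries and their depth, and the values are given as a description. Tnf was at 0 in 12 mice, and counting error in genes of few reads lowers correlations, so low values do not show that members varied apart. Among 13649 genes with a mean of at least 1 FPKM, the genes most like Casp1 over the 24 mice were AW112010 (r = 0.708), Ptges3 (0.696), Gm29543 (0.691), mt-Ta (0.681) and Cop1 (0.676). Those most like Pycard were Cyp2j12 (r = 0.691), Zswim7 (0.662), 4933434E20Rik (0.662), Pla2g12a (0.655) and Tusc2 (0.643). Those most like Il18 were Spaca6 (r = 0.789), Mir22hg (0.747), Glyr1 (0.732), Tpcn2 (0.728) and Nsmce4a (0.726). Those most like Nfkb1 were Rptor (r = 0.791), Gtf2ird2 (0.746), Terf1 (0.731), Ppp6r2 (0.710) and Pofut1 (0.704).

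The other genes of these pathways were taken from 7 lists with 104 genes, of which 103 could be tested. None passed adjustment. At an unadjusted p under 0.05, 0 of 103 differed in angiotensin II against vehicle, 2 in angiotensin II + AEC against angiotensin II, 3 in vehicle + AEC against vehicle, 1 in the interaction, 3 in the average effect of angiotensin II and 1 in that of AECs. The share of all genes in these comparisons was 2.21%, 2.54%, 2.41%, 2.54%, 2.39% and 2.44%, so the counts of listed genes were close to or below the background. For angiotensin II against vehicle within the 18 libraries, 2 of 21 other inflammasome genes were higher and 1 was lower, with 0 in each other list. There 1053 of all 27286 genes differed. The median log2 difference of the 103 genes was 0.09 for angiotensin II against vehicle, -0.04 for angiotensin II + AEC against angiotensin II and 0.02 for vehicle + AEC against vehicle.

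Among 21 other inflammasome genes, 6 averaged at least 1 FPKM. They were Ninj1 (12.6 FPKM), which ruptures the plasma membrane in pyroptosis, Txnip (5.99), Nek7 (5.59), a kinase that binds NLRP3, Panx1 (2.87), a channel that releases ATP, P2rx7 (1.78), the receptor for extracellular ATP, and Gsdmd (1.43), the pore that caspase-1 opens. Panx1 was higher in the average effect of angiotensin II by 0.16 (95% interval 0.05 to 0.27, exact permutation p = 0.00211, limma adjusted p = 0.9999), with group means of 2.73 FPKM in vehicle, 2.98 in angiotensin II, 2.68 in vehicle + AEC and 3.10 in angiotensin II + AEC mice. It was 0.15 (0.06 to 0.25) within the 18 libraries. Il1a, which encodes interleukin-1 alpha, had a difference of -0.44 in the same comparison (95% interval -0.83 to -0.05, exact permutation p = 0.0277, limma adjusted p = 0.9999) and of -0.45 (-0.91 to 0.02) within the 18 libraries. Nlrc4, the sensor that pairs with NAIP proteins, was higher in vehicle + AEC than in vehicle mice by 0.40 (95% interval 0.04 to 0.76, exact permutation p = 0.0411, limma adjusted p = 0.995) and by 0.46 (0.04 to 0.88) within the 18 libraries. The Nlrc4 interaction was -0.56 (95% interval -1.07 to -0.05, exact permutation p = 0.0191, limma adjusted p = 0.931), the opposite sign to that of Tlr2, and within the 18 libraries its interval included 0 (-1.17 to 0.02).

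Receptors and inhibitors of the cytokines covered a wide range of levels. Il18bp, which encodes the decoy that binds interleukin-18, averaged 2.51 FPKM, and Il1rap and Il1r1, the chains of the interleukin-1 receptor, averaged 1.93 and 0.844 FPKM. The interleukin-18 receptor chains Il18r1 and Il18rap averaged 0.0115 and 0.0160 FPKM, beside 14.8 FPKM for Il18, and Il1rn, the interleukin-1 receptor antagonist, averaged 0.0063 FPKM. Il33, a cytokine of the interleukin-1 family, averaged 16.1 FPKM. Il18rap was the only gene of this list at an unadjusted p under 0.05, in angiotensin II + AEC against angiotensin II (exact permutation p = 0.130) and in the average effect of AECs (exact permutation p = 0.0260), with 0 to 11 reads per mouse. Tnfrsf1a, the main receptor of tumour necrosis factor, averaged 6.02 FPKM, Tnfrsf1b 1.43 FPKM, Il6st, the signalling chain of the interleukin-6 receptor, 8.44 FPKM and Il6ra 0.804 FPKM. Of 14 genes of tumour necrosis factor and interleukin-6 receptors and signalling, only Lif, an interleukin-6 family cytokine, differed at an unadjusted p under 0.05 with all libraries in the fit. It was lower in vehicle + AEC than in vehicle mice (2.41% of all genes differed), at a log2 difference of -0.42 (95% interval -0.79 to -0.05, exact permutation p = 0.0346, limma adjusted p = 0.995) and -0.43 (-0.82 to -0.03) within the 18 libraries, with 6 to 26 reads per mouse. Within the 18 libraries, 1 of the 14 was also higher in the average effect of angiotensin II (1058 of all 27286 genes differed). In the average effect of AECs 1 was higher and 1 lower there (1188 of all genes).

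Of the other toll-like receptors, Tlr3, the sensor of double-stranded RNA, averaged 1.65 FPKM and was above Tlr2 in mean level. Tlr13 averaged 0.373 FPKM, Tlr9 0.366, Tlr7 0.342, and Tlr1 and Tlr6, the partners of TLR2 in its heterodimers, 0.135 and 0.121 FPKM. Cd14, a co-receptor of TLR2 and TLR4, averaged 1.83 FPKM and Ly96, which encodes the MD-2 chain of the TLR4 receptor, 0.831 FPKM. With all libraries in the fit, 0 of these 15 receptors and co-receptors differed at an unadjusted p under 0.05 in any comparison. The same held for 0 of 18 genes of signalling from toll-like and interleukin-1 receptors, among them Myd88 at 2.25 FPKM and Tollip at 33.1 FPKM. Of all genes, 2.21% to 2.54% did so. Within the 18 libraries, 1 of the 15 receptors and 1 of the 18 signalling genes were lower in vehicle + AEC than in vehicle mice (1140 of all 27286 genes differed). In the average effect of angiotensin II 1 receptor was higher and 1 lower (1058 of all genes). In that of AECs 2 signalling genes were lower (1188 of all genes).

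Of 14 other genes of NF-kappaB, Rela (11.5 FPKM), the subunit that pairs with p50, had a higher FPKM than Nfkb1 (1.87 FPKM). Rela had 494 to 908 reads per mouse against 322 to 548 for Nfkb1, so the size of this gap depends on the gene lengths used. Nfkb2, which encodes the p100 precursor of p52, was lower in angiotensin II + AEC than in angiotensin II mice, at 1.27 ± 0.240 against 1.58 ± 0.0516 FPKM (SD, n = 6) and a log2 difference of -0.31 (95% interval -0.56 to -0.07, exact permutation p = 0.0173, limma adjusted p = 1). Within the 18 libraries the difference was -0.30 (95% interval -0.56 to -0.05). Nfkbia, the inhibitor that NF-kappaB itself induces, was higher in vehicle + AEC than in vehicle mice by 0.27 (95% interval 0.0034 to 0.54, exact permutation p = 0.0801, limma adjusted p = 0.995), at 13.5 ± 3.47 against 10.9 ± 1.11 FPKM (SD, n = 6). Of 11 target genes of NF-kappaB that could be tested, 0 differed in the 3 comparisons between pairs of groups with all libraries in the fit (2.21% to 2.54% of all genes did). Within the 18 libraries 1 was lower in vehicle + AEC than in vehicle mice and 1 in the average effect of AECs. There 1140 and 1188 of all 27286 genes differed. Nos2, the inducible nitric oxide synthase, was higher in the average effect of angiotensin II by 0.35 (95% interval 0.0011 to 0.70, exact permutation p = 0.0457, limma adjusted p = 0.9999), and within the 18 libraries its interval included 0 (-0.22 to 0.59).

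**Figure D4:**
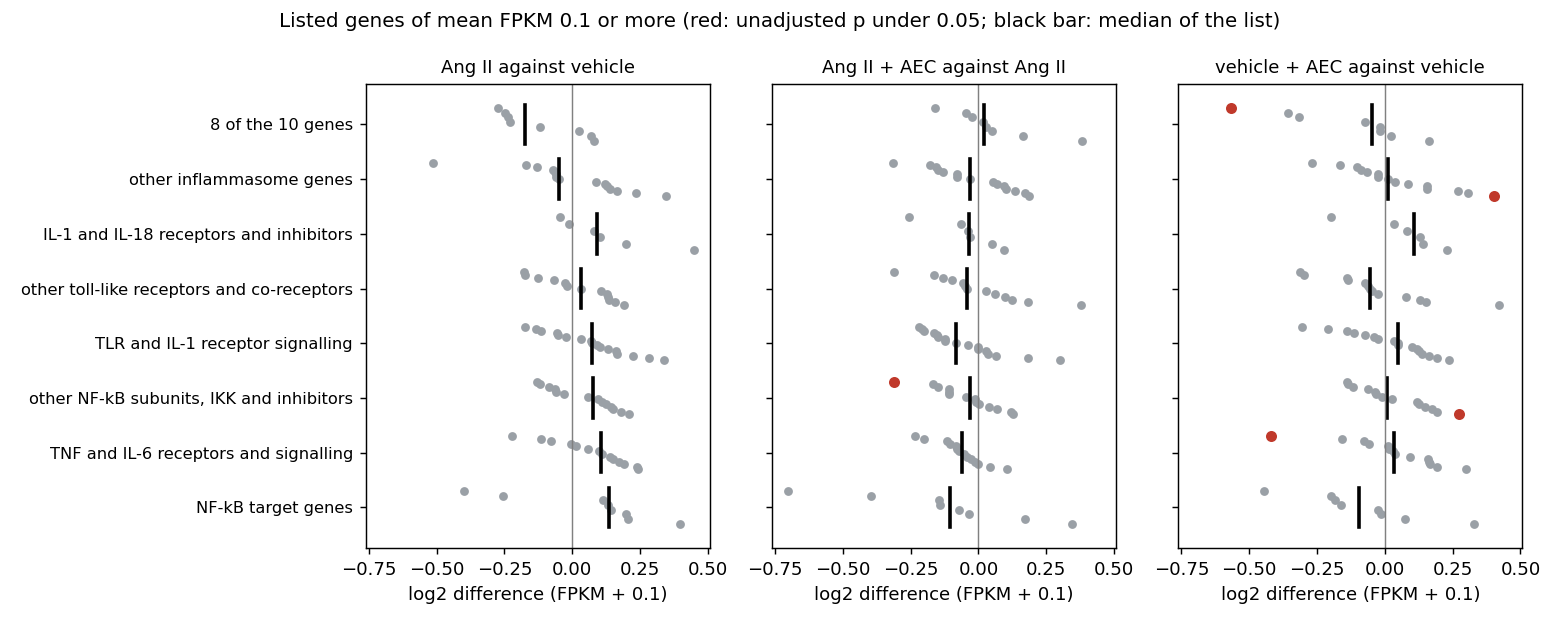
Log2 difference on the log2(FPKM + 0.1) scale (horizontal axis) of the 8 members other than Tnf and Il6 and of 87 genes of the 7 pathway lists with a mean of at least 0.1 FPKM (rows), in 3 comparisons (panels). Each point is a gene, red marks an unadjusted p under 0.05 and black bars are medians. Few points are red, among them Tlr2 at -0.57 and Nlrc4 at 0.40 in vehicle + AEC against vehicle and Nfkb2 at -0.31 in angiotensin II + AEC against angiotensin II.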

How the data were processed

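Brain mRNA of 24 mice, 6 in each of 4 groups, was sequenced, and groups and replicate numbers were taken from the sample labels. The deposited table holds FPKM, with gene names, lengths and GRCm38 coordinates. The authors mapped reads to the Ensembl mouse genome and tested genes with DESeq 1.10.1. Aligner, counter and strand setting are not given in the sources used here. FPKM multiplied by gene length was a whole multiple of 1 fragment for 100% of values. The limit was 0.01 reads, widened in proportion to the count for genes of many reads, so that it tests nothing at the highest counts. This gave the reads per gene and totals of 16536449 to 25308700 per mouse. Intervals on reads cover counting error only, and genes at 3 reads or fewer are given no fold change.

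The members and gene lists were chosen with earlier results of these data known. All 10 members are named, with at most 5 genes per comparison from 7 pathway lists (104 genes), those of lowest unadjusted p under 0.05. Genes named for their level, and Plac8, Ccr2 and Camp from 10 lists of cell markers (77 genes), were chosen after their values were seen. Values of log2(FPKM + 0.1) were fitted with limma 3.58.1 (R 4.3.3), the 4 groups together, eBayes with trend and Benjamini-Hochberg adjustment over 27286 genes above 0 in at least 6 of 24 mice. Single genes were also compared by two-sided exact permutation of mice (smallest p 0.002165 for 6 against 6). For interactions and average effects, labels were permuted within the other treatment. Alternatives changed the pseudocount, filter, groups in the fit, scaling, replicate block, library set, weights, or the test (limma voom on recovered reads), and left out each mouse. The fit was tested on simulated data. Exons were read from GENCODE M21 and windows from RefSeq. Python 3.11.15, pandas 2.3.3, scipy 1.17.1 and matplotlib 3.10.9 were used. Other data of the study were not analysed here.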

Additional observations from a re-analysis of the deposited data

Results flagged for a closer look

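In 40 sets of 6 mice (10 genes in 4 groups), the lowest or highest mouse was tested against the gap expected within a group by Dixon's test. It was run on log2(FPKM + 0.1) at the 95% level, which chance passes in about 1 of 20 sets. It was passed by 4. Tlr2 was lowest in angiotensin II replicate 5, at 0.179 FPKM from 9 reads, and this library is one of the 6 of high total FPKM. Casp1 was lowest in vehicle replicate 1, at 0.826 FPKM from 23 reads. Il1b was lowest in vehicle replicate 5, at 0.0610 FPKM from 2 reads. Il6 was highest in angiotensin II replicate 2, at 0.0658 FPKM from 3 reads, which is at the limit of detection.

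The difference of Tlr2 with AECs had opposite signs in vehicle mice (-0.57) and angiotensin II mice (0.38), and the interaction of 0.946 on the log2 scale had an exact permutation p of 0.00167 with AEC labels permuted within each infusion. It was the lowest p of 60 tests of members, and the limma adjusted p over all genes was 0.931. The sets of libraries, angiotensin II replicate 5 and the markers Plac8 and Camp are given with the result, and their part in it was not tested.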

How the results depend on the processing

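The number of members at an adjusted p under 0.05 was 0 in every comparison and alternative that was run. For the number at an unadjusted p under 0.05, angiotensin II against vehicle and the average effect of AECs stayed at 0 in every alternative. Angiotensin II + AEC against angiotensin II (1) gave 0 with a pseudocount of 1, with genes of mean FPKM of at least 1, in the 18 libraries and with array weights, and 0 to 1 with 1 mouse left out. Vehicle + AEC against vehicle (1) gave 0 with mean FPKM of at least 1, 2 in the 18 libraries and with array weights (Tnf besides Tlr2), and 0 to 2 with 1 mouse left out. The interaction (2) gave 1 with a pseudocount of 1, the library set as a term, the 18 libraries and array weights, 0 with mean FPKM of at least 1, and 1 to 2 with 1 mouse left out. The average effect of angiotensin II (1) gave 0 without a filter, with mean FPKM of at least 1, in the 18 libraries and with array weights, 2 with the library set as a term, and 0 to 1 with 1 mouse left out. A mean FPKM of at least 1 leaves only Il18, Nfkb1 and Casp1 to test, and otherwise the cause was not tested. The Tlr2 interaction kept its direction and an unadjusted p under 0.05 in 33 of 33 alternatives (0.34 to 1.17 on the log2 scale), Tlr2 in vehicle + AEC against vehicle in 33 of 34, and Tlr4 in the average effect of angiotensin II in 20 of 33. No difference of a member at an unadjusted p under 0.05 reversed.

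Deviations of same-numbered mice from their group means correlated at -0.09 to 0.53, over 0.1 in 14 of 24 pairs, and since not every pair was over 0.1 the replicate numbers were not taken to pair the mice. The highest values, 0.47 to 0.53, were those of the pairs in which both mice were among the 6 libraries of high total FPKM. All other pairs were at 0.19 or below. With the replicate block, members at an unadjusted p under 0.05 numbered 0, 1, 1, 1, 1 and 0 in the order of the report, Il6 was lost in angiotensin II + AEC against angiotensin II and in the interaction, Tlr2 had an interaction of 0.95 (95% interval 0.46 to 1.43), its difference in angiotensin II + AEC against angiotensin II (0.38) had an interval of 0.036 to 0.73, and genes at an unadjusted p under 0.05 rose from 604 to 950 for angiotensin II against vehicle and from 692 to 1416 for the interaction. Over the other alternatives these ranged from 93 to 1254 and from 118 to 1282, with at most 1 gene past adjustment. Depth limits Tnf, Il6, Il1b and Tlr4, and levels per cell type cannot be had from these bulk libraries.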
